A study of Mus musculus with 6 samples.

Results

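The Krüppel-like factor (KLF) and early growth response (EGR) genes described here are Klf2, Klf4, Klf5, Klf6, Klf9, Klf10, Klf15, Egr1, Egr2 and Egr3. They were found by gene symbol in a deposited table of exon counts, as 10 of its 24940 genes, and all 10 had enough counts to be tested, as 10 of 13357 tested genes. The counts come from polyadenylated RNA of primary hepatic stellate cells, the retinoid-storing pericytes of the liver sinusoid, taken from wild-type female C57BL/6JBomTac mice and kept in culture. At day 2 after isolation the cells were given 5 µM forskolin (labelled Fsk), a plant compound that raises cyclic AMP by activating adenylyl cyclase, or an equal volume of its solvent DMSO (labelled Ctrl, called vehicle here). The medium was replaced at 3 h, a further 21 h passed, and RNA was collected at 24 h, so the values describe a late time after a short pulse. Each group has 3 libraries, lettered A, B and C. The labels give neither the age of the mice nor whether the letters stand for separate animals or cultures, so p-values measure the spread between these libraries only, and that spread may be technical.

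KLF and EGR proteins are zinc finger transcription factors that bind GC-rich DNA. EGR genes are classical immediate early genes: they are switched on within minutes by growth factors, calcium or cyclic AMP, through serum response factor (SRF) bound to CArG boxes and through CREB bound to cyclic AMP response elements (CREs), and their products are held in check by the NAB corepressors. KLF proteins bind GC and CACCC boxes, some activating and some repressing, and they take part in cell identity, growth arrest, metabolism and the response to steroid hormones. KLF6 was isolated from activated stellate cells, where it was linked to collagen and TGF-beta genes.

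With forskolin, 6 of the 10 genes were higher and 3 were lower than with vehicle, and Klf6 did not pass the test (edgeR quasi-likelihood test, adjusted p under 0.05). Among all tested genes 49.9% passed, 24.8% being higher and 25.1% lower. Klf4, Egr2 and Egr3 changed at least 2-fold, all upward, as did 6.62% of all tested genes in either direction. Library ranges of the 2 groups did not overlap for 9 of the 10 genes, against 57.2% of all tested genes. The median log2 fold change, forskolin over vehicle, was 0.22 over the 10 genes and 0.0082 over all tested genes, and the median size without its sign was 0.56 and 0.22. The 10 genes were chosen with earlier results of these data known, so these contrasts with all tested genes are a description only. Levels are in CPM, the count as a share of the library total scaled by TMM, a method that evens out differences in library makeup. Column totals were 10890193 to 12954310 counts with forskolin and 13001358 to 15090262.5 with vehicle, so every forskolin library was the shallower. With library size added to the fit, 3 of the 10 genes were higher and 2 lower. In that fit 1998 of all 13357 tested genes were higher and 2299 lower.

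**Figure D1:**
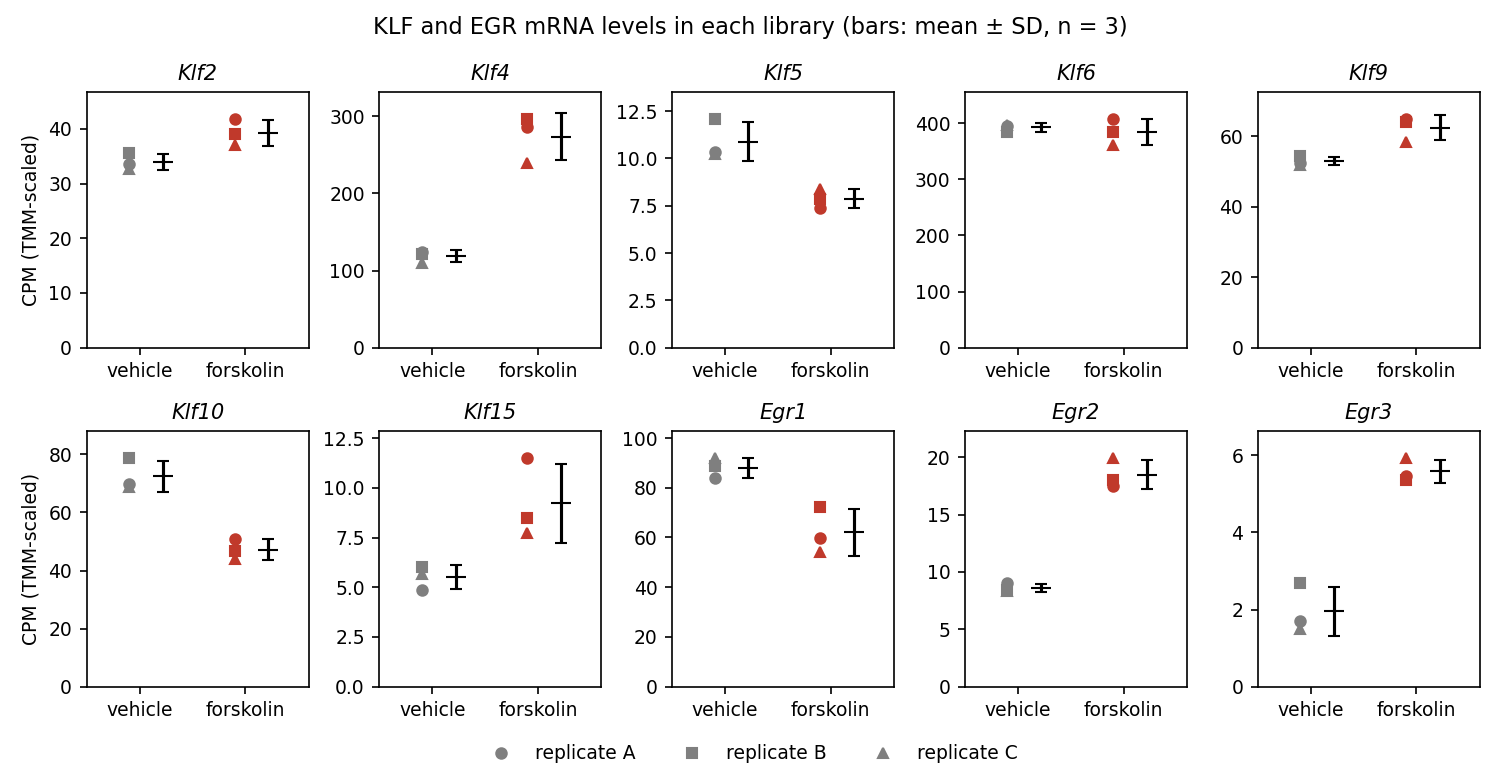
Level of each KLF and EGR gene in each library in CPM (vertical axis, from 0), for 3 vehicle libraries (grey) and 3 forskolin libraries (red), with marker shape for the replicate letter and a bar for the mean ± SD. Forskolin libraries of Klf4, Egr2 and Egr3 stand well above all vehicle libraries, those of Klf10 and Egr1 below them, and those of Klf6 lie on both sides of the vehicle values.

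The 3 EGR genes did not move together. Egr1 (mm10 chromosome 18, 34861207 to 34864956), whose product is the best known factor of the family and is induced in wounded tissue, fell 1.42-fold. It was at 83.9, 88.7 and 91.8 CPM in vehicle A, B and C and at 59.8, 72.4 and 54.0 CPM in forskolin A, B and C. All forskolin libraries were below all vehicle libraries, with forskolin B nearest to them (log2 fold change -0.50, SE 0.078, edgeR adjusted p = 3.3e-05).

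Egr2 (chromosome 10, 67537869 to 67542188), known as Krox20 and needed for myelination by Schwann cells, rose 2.15-fold. Its vehicle libraries A, B and C were at 9.01, 8.44 and 8.35 CPM and its forskolin libraries at 17.5, 18.0 and 19.9 CPM. The lowest forskolin library was thus well above the highest vehicle library (log2 fold change 1.10, SE 0.11, edgeR adjusted p = 2.11e-07).

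Egr3 (chromosome 14, 70077445 to 70082613), a relative that acts in muscle spindles and lymphocytes, was the rarest of the 10 and rose 2.81-fold. Its count was 23, 40.5 and 19 in the vehicle libraries A to C and 60, 71 and 72.5 in the forskolin libraries A to C, although the forskolin libraries were shallower. On the CPM scale this was 1.70, 2.68 and 1.5 with vehicle and 5.47, 5.36 and 5.92 with forskolin, the vehicle values being the more scattered (log2 fold change 1.49, SE 0.23, edgeR adjusted p = 2.45e-05). Per kilobase of exon, Egr1 made up 88.7% to 90.3% of the summed level of the 3 EGR genes in vehicle libraries and 68.1% to 76.0% in forskolin libraries. The ratio of Egr2 to Egr1 per kilobase went from 0.101 ± 0.0089 with vehicle to 0.314 ± 0.063 with forskolin (SD, n = 3 each), with ranges that did not overlap. The shift in this makeup is a description, since it repeats the changes of the single genes.

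Klf4 (chromosome 4, 55527137 to 55532475), a factor of pluripotent cells that also restrains smooth muscle genes and proliferation, rose 2.30-fold. Vehicle A, B and C held 124, 122 and 110 CPM, and forskolin A, B and C held 286, 296 and 239 CPM. Even forskolin C, the lowest of its group, was far above every vehicle library (log2 fold change 1.20, SE 0.066, edgeR adjusted p = 4.13e-11). It had the smallest adjusted p of the 10 genes and 1400.5 to 3917 counts per library.

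Klf2 (chromosome 8, 72319062 to 72321654), best known as a factor that blood flow induces in endothelium, was 1.15-fold higher. Its vehicle libraries A, B and C were at 33.7, 35.6 and 32.8 CPM and its forskolin libraries at 41.7, 39.0 and 37.0 CPM. The groups did not overlap, but the gap between forskolin C and vehicle B was small (log2 fold change 0.20, SE 0.073, edgeR adjusted p = 0.0269). This call was lost with DESeq2 (adjusted p = 0.0736) and without any 1 of 4 libraries, namely forskolin A (edgeR adjusted p = 0.0816), forskolin B (0.0581), vehicle A (0.0766) or vehicle C (0.102).

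Klf6 (chromosome 13, 5861489 to 5870393), the family member tied to stellate cell activation, was the most abundant of the 10 and showed no detectable difference. It was at 396, 384 and 398 CPM in vehicle A, B and C and at 407, 384 and 360 CPM in forskolin A, B and C, so the forskolin values spread to both sides of the vehicle values. The log2 fold change was -0.03 with a 95% interval of -0.13 to 0.06 (edgeR adjusted p = 0.574). Its sign turned with library size alone as the scaling (0.010) and without forskolin C (0.011).

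Klf9 and Klf15 are both known as targets of the glucocorticoid receptor with a daily rhythm, KLF9 acting as a repressor in many tissues and KLF15 driving amino acid and glucose metabolism. Both rose. Klf9 (chromosome 19, 23141226 to 23166911) was at 52.6, 54.4 and 52.0 CPM in vehicle A, B and C and at 64.8, 64.2 and 58.4 CPM in forskolin A, B and C, a 1.18-fold rise with no overlap (log2 fold change 0.24, SE 0.060, edgeR adjusted p = 0.00318). Klf15 (chromosome 6, 90462576 to 90475238) was at 4.87, 6.03 and 5.67 CPM with vehicle and at 11.5, 8.46 and 7.73 CPM with forskolin, forskolin A being the highest. This was a 1.66-fold rise on 66 to 125.5 counts per library (log2 fold change 0.73, SE 0.17, edgeR adjusted p = 0.00163).

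Klf10 and Klf5 fell. Klf10 (chromosome 15, 38294406 to 38300711), also called TIEG1 because TGF-beta induces it early, was at 69.8, 78.6 and 68.9 CPM in vehicle A, B and C and at 50.9, 46.8 and 43.9 CPM in forskolin A, B and C. All forskolin libraries were lower than all vehicle libraries, a 1.54-fold fall (log2 fold change -0.62, SE 0.068, edgeR adjusted p = 5.33e-07). Klf5 (chromosome 14, 99298691 to 99313409), a growth-promoting factor of epithelium and of dividing smooth muscle cells, was at 10.3, 12.1 and 10.2 CPM with vehicle and at 7.38, 7.86 and 8.38 CPM with forskolin. The groups were separate, with a 1.38-fold fall on 81 to 179.5 counts per library (log2 fold change -0.47, SE 0.13, edgeR adjusted p = 0.00705). Without vehicle B, the highest library, the adjusted p of Klf5 was 0.052.

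The KLF and SP families share the same type of zinc finger domain. Among all tested genes 24.8% were higher and 25.1% lower, the shares against which the counts below are to be read. Of the 6 other KLF genes that could be tested, 1 rose and 0 fell, with a median log2 fold change of 0.04. The gene that rose was Klf11, also called TIEG2 and the nearest relative of Klf10, which went from 11.6 ± 1.24 to 17.1 ± 2.14 CPM (SD, n = 3 each; log2 fold change 0.56, edgeR adjusted p = 0.000956). Klf10 and Klf11 thus passed the test in opposite directions, although with library size added to the fit the log2 fold change of Klf11 was 0.25 (edgeR adjusted p = 0.264). Klf3, a repressor, was at 100 and 99.2 CPM, Klf13 at 91.0 and 97.2 CPM, Klf16 at 51.0 and 45.8 CPM, Klf7 at 16.0 and 18.2 CPM and Klf12 at 3.70 and 3.0 CPM with vehicle and forskolin, none of them past the test. Of 5 SP genes tested 1 rose, Sp1, the general activator of GC box promoters, from 78.0 ± 1.49 to 94.6 ± 2.31 CPM (log2 fold change 0.28, edgeR adjusted p = 0.000119). Sp2, Sp3, Sp4 and Sp6 had adjusted p of 0.182, 0.793, 0.539 and 0.193 in edgeR's test. Egr4 had too few counts to be tested, and Wt1, whose zinc fingers resemble those of the EGR proteins, was at 1.67 and 1.03 CPM (edgeR adjusted p = 0.0956).

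**Figure D2:**
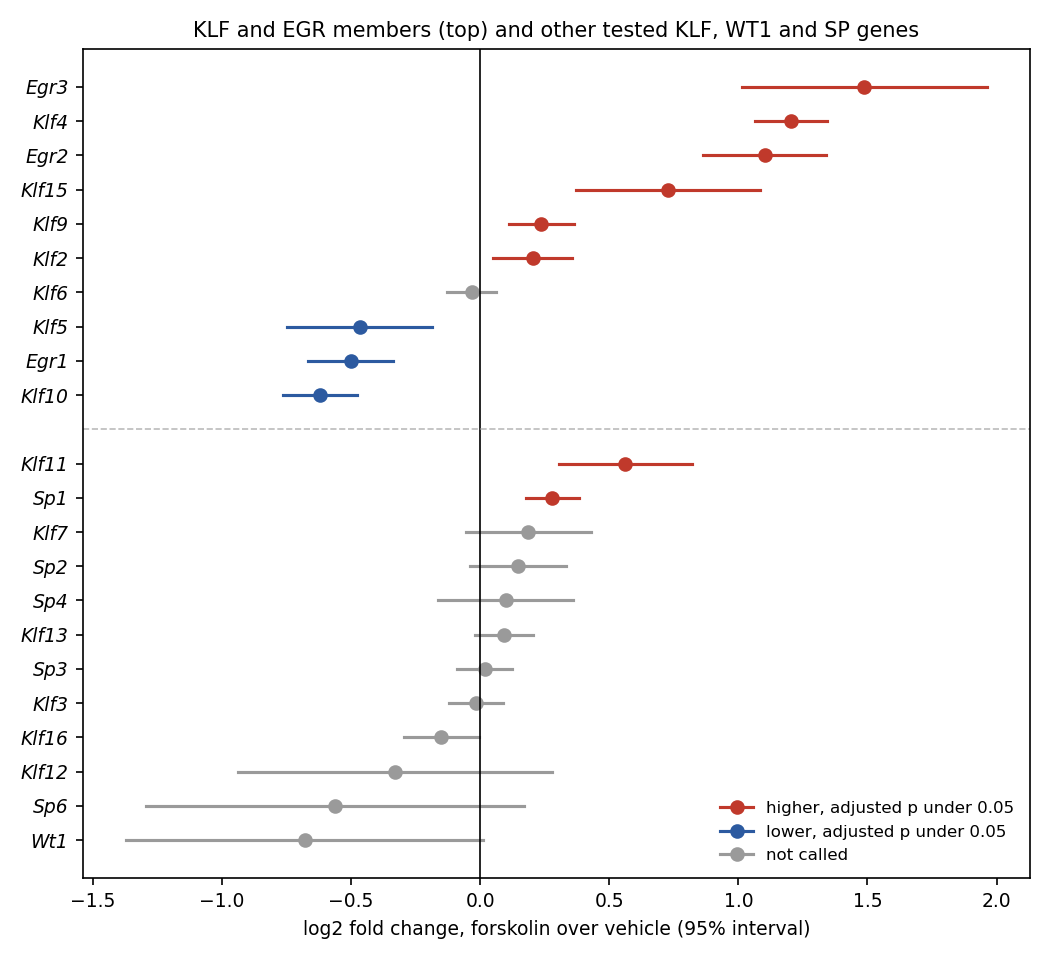
Log2 fold change of forskolin over vehicle (horizontal axis, point) with its 95% interval (line) for the 10 KLF and EGR genes above the dashed line and for 12 other tested KLF, WT1 and SP genes below it, coloured by the edgeR call. The 10 genes run from Klf10 at -0.62 to Egr3 at 1.49, and below the line Klf11 and Sp1 are the genes past the threshold.

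Levels can be compared between genes only per exon length, here CPM per kilobase of the exon length in the deposited table. In vehicle cells the order was Klf6 (93.2 ± 1.73 CPM per kilobase), Klf4 (39.1 ± 2.46), Egr1 (28.7 ± 1.31), Klf10 (23.7 ± 1.77), Klf2 (18.8 ± 0.813), Klf9 (16.3 ± 0.388), Klf5 (6.33 ± 0.596), Egr2 (2.90 ± 0.120), Klf15 (2.33 ± 0.250) and Egr3 (0.499 ± 0.161; SD, n = 3). No neighbours in that order overlapped in their library ranges. With forskolin, Klf4 stood at 90.1 ± 9.98 CPM per kilobase beside Klf6 at 91.1 ± 5.51, and their library ranges overlapped. The ratio of Klf4 to Klf6 per kilobase was 0.384 to 0.439 in vehicle libraries and 0.920 to 1.07 in forskolin libraries. Next came Klf2 (21.7 ± 1.32), Egr1 (20.2 ± 3.06) and Klf9 (19.2 ± 1.09), where the range of Egr1 overlapped those of both others while those of Klf2 and Klf9 did not overlap. Klf10 followed at 15.5 ± 1.16 and Egr2 at 6.23 ± 0.427, then Klf5 (4.58 ± 0.292) and Klf15 (3.90 ± 0.841), whose ranges overlapped, and Egr3 was last at 1.42 ± 0.0750.

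Summed over the 7 KLF genes, the level per kilobase was 196 to 203 in vehicle libraries and 225 to 260 in forskolin libraries. Klf4 made up 19.6% ± 0.943 of this sum with vehicle and 36.6% ± 1.77 with forskolin, while Klf6 went from 46.7% ± 1.66 to 37.1% ± 1.03 and Klf10 from 11.9% ± 0.713 to 6.30% ± 0.202 (SD, n = 3 each). A fall in a share is no fall in a level, since the level of Klf6 itself did not pass the test. Exon lengths bear on this order. The deposited table gives Klf5 1719 bases, Klf9 3259 and Egr3 3920, while the matching GENCODE M21 transcripts have 3352, 4486 and 1509, so the place of these genes depends on the gene model. For the other 7 genes the lengths were close. At least 99.7% of the 50-base stretches of each of the 10 GENCODE transcripts occurred in no other gene. For Egr3 that transcript is shorter than the deposited exon length, so part of its counted sequence was not checked.

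**Figure D3:**
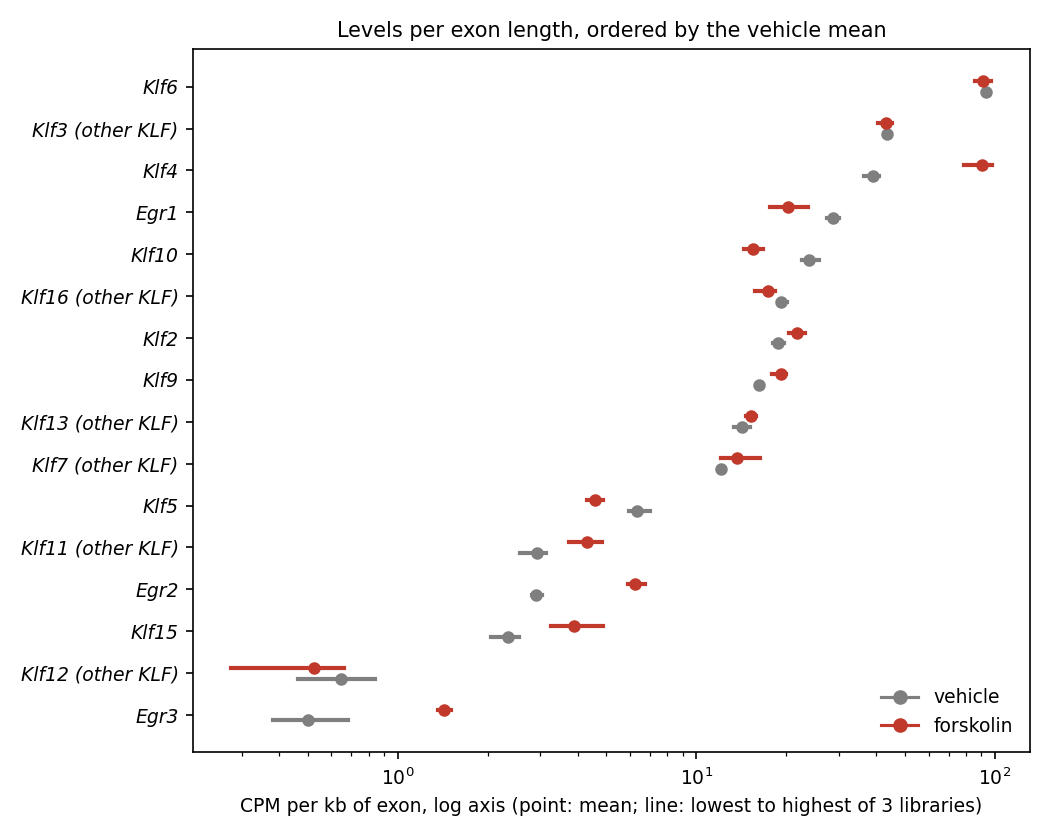
Level per kilobase of exon (horizontal log axis) of the 10 genes and of 6 other tested KLF genes in vehicle (grey) and forskolin (red) libraries, with a point for the mean and a line from the lowest to the highest of 3 libraries, ordered by the vehicle mean. Klf4 with forskolin lies level with Klf6, at 90.1 and 91.1 CPM per kilobase.

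Cyclic AMP acts on promoters through CREB, so the promoter windows of these genes are shown for the letters of a CRE. RefSeq windows on GRCm38.p6, the assembly also called mm10, run from 250 bases before to 50 bases after a start site, and 6 of the 10 genes were matched at the start site of their deposited transcript. Klf5, Klf10, Egr1 and Egr3 are not shown. The stretches below end at or before the start site and read 5′ to 3′ on the gene's strand. Capitals mark a CRE core (TGACG, or CGTCA on the other strand, also contained in the full CRE TGACGTCA), a CArG box or a CCAAT box (ATTGG on the other strand). They are shown because 5 of the 6 windows hold a CRE core. None of the 6 genes fell, so the windows give no comparison of genes that rose with genes that fell. For Egr2, which has several windows, the one at the deposited start site was used.
Egr2, chr10:67537739-67537868, plus strand: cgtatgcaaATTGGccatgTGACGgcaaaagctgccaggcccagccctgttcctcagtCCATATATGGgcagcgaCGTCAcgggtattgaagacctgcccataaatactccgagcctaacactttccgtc
Klf15, chr6:90462476-90462575, plus strand: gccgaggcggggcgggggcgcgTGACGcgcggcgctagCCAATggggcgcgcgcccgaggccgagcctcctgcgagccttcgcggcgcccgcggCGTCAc
Klf9, chr19:23141126-23141225, plus strand: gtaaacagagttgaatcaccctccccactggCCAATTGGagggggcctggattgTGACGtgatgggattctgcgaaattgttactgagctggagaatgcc
Klf4, chr4:55532676-55532725, minus strand: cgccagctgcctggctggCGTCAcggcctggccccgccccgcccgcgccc
Klf2, chr8:72318812-72318861, plus strand: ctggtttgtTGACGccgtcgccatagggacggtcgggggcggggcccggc
Klf6, chr13:5861389-5861488, plus strand: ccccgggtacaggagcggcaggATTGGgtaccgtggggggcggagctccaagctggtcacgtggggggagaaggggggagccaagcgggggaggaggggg

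In Egr2 a CArG box at -72 from the start site lies between CRE cores at -111 and -55, positions being those of the first base on the printed strand. Klf15 has CRE cores at -78 and -6, Klf9 has one at -46, and those of Klf4 and Klf2 lie at the far end of the window, at -232 and -241. No window of the 6 holds the full CRE. A CRE core was present in 20.8% of all 32851 windows and in 32.4% of the 9340 windows at the start site of a tested gene. This share was 33.8% for genes that were higher with forskolin, 29.5% for those that were lower, 33.1% for those not called and 25.9% for those at least 2-fold higher. The matches in the 5 windows are a description of their letters only. CArG boxes were present in 1.63% of all windows, and of the 6 genes only Egr2 had one.

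The counts of called genes in the lists of related genes are to be read against the 24.8% higher and 25.1% lower among all tested genes. In the list of NAB corepressors and SRF partners, 3 of 8 tested genes were higher and 3 lower (median log2 fold change -0.01). Mkl1 and Mkl2, which encode the actin-regulated SRF coactivators MRTF-A and MRTF-B, fell from 180 ± 7.93 to 83.4 ± 5.22 CPM and from 104 ± 7.0 to 75.0 ± 0.546 CPM (edgeR adjusted p = 4.79e-12 and 8.9e-07). Nab1, a corepressor that binds EGR proteins, rose from 113 ± 2.61 to 129 ± 2.37 CPM (edgeR adjusted p = 0.00172). Adding library size to the fit ended the call of Nab1 (edgeR adjusted p = 0.0551). The kinase ERK5 and its MEF2 targets form the best known route to Klf2 and Klf4, and 3 of 6 tested genes of that list were higher and 2 lower. Mapk7, which encodes ERK5, and Map2k5, which encodes its activating kinase, were higher, at 62.3 ± 3.39 against 51.5 ± 1.37 CPM and at 31.2 ± 2.61 against 23.6 ± 0.590 CPM (edgeR adjusted p = 0.000988 and 0.000602), while Mef2c fell from 7.10 ± 0.814 to 2.86 ± 0.681 CPM (2.28e-05). Of 15 KLF cofactors and ubiquitin ligases 4 rose and 3 fell, with Siah1a going from 15.8 to 25 CPM, the corepressor gene Ctbp1 from 287 to 346 CPM and Wwp1, a ligase for KLF2 and KLF5, from 113 to 91.7 CPM.

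Of 22 other immediate early genes 10 were higher and 8 lower (median log2 fold change 0.0016), beside 24.8% and 25.1% of all tested genes. Nr4a1, an orphan nuclear receptor gene, rose from 23.3 ± 1.58 to 86.5 ± 3.40 CPM. Btg2, an antiproliferative gene, and Zfp36, which encodes an mRNA-destabilizing protein, fell from 128 ± 5.42 to 59.9 ± 4.80 CPM and from 83.0 ± 0.589 to 38.3 ± 2.54 CPM (edgeR adjusted p = 9.23e-14, 2.65e-11 and 2.91e-11 for the 3 genes). Of 9 genes of the glucocorticoid response, to which Klf9 and Klf15 belong, 3 were higher and 3 lower, shares near those of all tested genes. Tsc22d3, the gene of the leucine zipper GILZ, rose from 25.4 to 50.5 CPM, and Sgk1 and Errfi1 fell from 217 to 148 and from 319 to 227 CPM. Clock genes, whose rhythm Klf9, Klf10 and Klf15 follow in many tissues, had 8 of 16 members higher and 4 lower (median log2 fold change 0.24). Bhlhe40 rose from 145 to 237 CPM, Per2 from 17.9 to 37.7 CPM and Cry2 from 29.8 to 55.3 CPM.

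Genes known as targets of KLF2 and KLF4 in endothelium had 2 of 7 tested members higher and 5 lower (median log2 fold change -0.97), where 49.9% of all tested genes were called and 25.1% were lower. S1pr1, a sphingosine 1-phosphate receptor gene that KLF2 activates, rose from 21.7 ± 3.12 to 48.9 ± 5.47 CPM. Plvap, which encodes a protein of endothelial fenestrae, fell from 191 ± 11.5 to 69.1 ± 13.6 CPM and Angpt2, an angiopoietin gene, from 22.4 ± 1.82 to 7.70 ± 0.959 CPM (edgeR adjusted p = 1.69e-08, 1.4e-10 and 4.94e-09 for the 3 genes). Thbd, the other higher gene, rose from 1114 to 1453 CPM and made up most of the summed level of the list. That sum was 1352 to 1433 CPM with vehicle and 1511 to 1667 CPM with forskolin. Targets of EGR1 in mesenchymal cells had 3 of 11 tested members higher and 8 lower (median log2 fold change -0.41), against the same shares of all tested genes. Cd44, a hyaluronan receptor gene, fell from 249 ± 6.38 to 132 ± 14.2 CPM and F3, the tissue factor gene, from 357 ± 8.06 to 231 ± 16.1 CPM, while Plau, which encodes urokinase, rose from 268 ± 6.15 to 400 ± 22.2 CPM (edgeR adjusted p = 2.83e-10, 3.72e-09 and 5.26e-09). Neither list was split into genes that its factors activate and genes that they repress, so the counts and medians have no expected direction. These lists hold genes with many other regulators, and whether a KLF or EGR protein acts on them here was not measured.

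**Figure D4:**
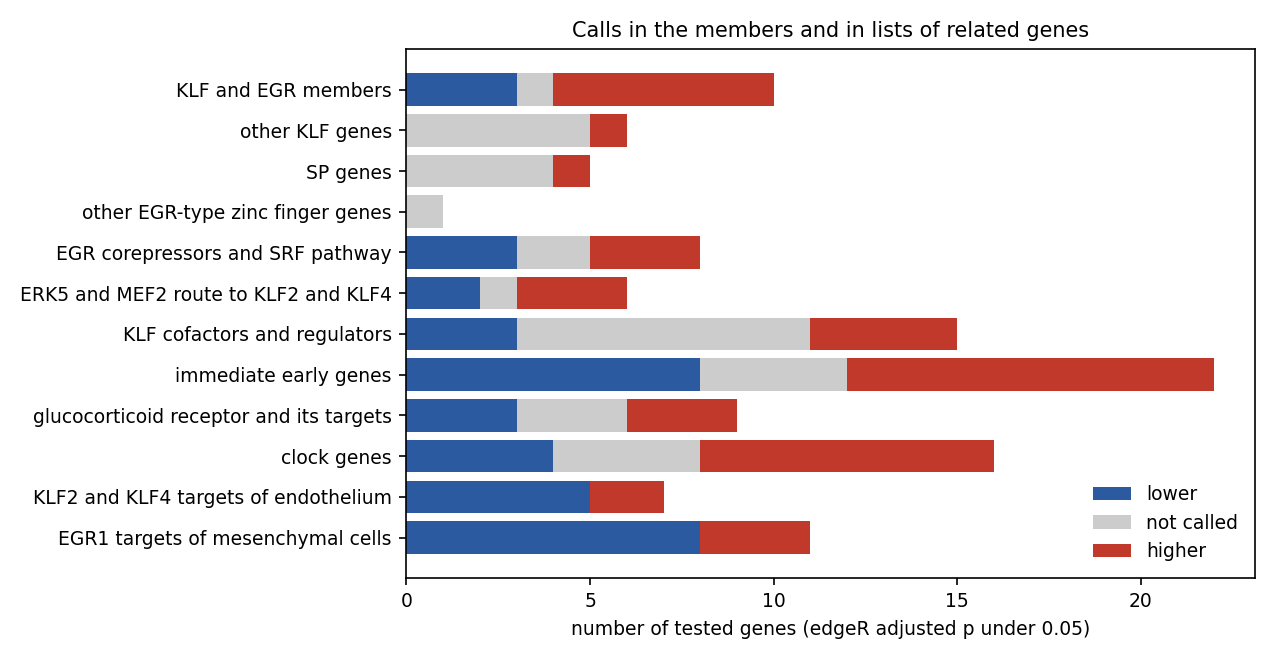
Number of tested genes (horizontal axis) that were lower (blue), not called (grey) or higher (red) with forskolin among the 10 KLF and EGR genes and in each list of related genes. Most lists hold both colours, and the EGR1 target list has 8 lower and 3 higher genes.

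Calls in the marker lists are likewise to be read against the 24.8% higher and 25.1% lower among all tested genes. All 14 stellate cell markers were measured well enough to be tested, 5 higher and 7 lower. Their summed level was 5607 to 5885 CPM in vehicle and 5458 to 5644 CPM in forskolin libraries. Among these markers Hgf rose from 198 to 401 CPM, and Des and Pdgfrb fell from 323 to 182 and from 381 to 282 CPM. In bulk RNA, fewer cells of a type and less RNA per cell cannot be told apart. KLF2 and KLF4 are abundant in endothelium, whose markers had 8 of 13 genes tested, 1 higher and 4 lower, and summed to 46.2 to 54.1 CPM with vehicle and 46.4 to 49.4 CPM with forskolin. Its defining markers were near 0, Pecam1 at 0.379 and 0.397 CPM and Cdh5 at 0.375 and 0.420 CPM with vehicle and forskolin. Much of the sum was Egfl7, at 18.2 and 21.2 CPM, and Stab1, at 7.74 and 8.15 CPM, neither past the test. Kdr fell from 3.21 to 1.08 CPM, Ptprb fell from 10.5 to 7.21 CPM and Stab2 rose from 0.978 to 2.50 CPM. With library size added to the fit the calls of Stab2 and Ptprb were lost (edgeR adjusted p = 0.220 and 0.0653), and that of Ptprb also without forskolin B (0.0630) or vehicle B (0.0754).

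Of 12 macrophage and leukocyte markers 4 were tested, 2 higher and 1 lower, and the list summed to 46.4 to 47.5 CPM with vehicle and 50.9 to 56.7 CPM with forskolin. Csf1r was at 13.2 CPM with vehicle and 18.3 with forskolin and Cd68 at 11.2 and 15.8 CPM, both higher, Lyz2 was lower at 10.8 and 4.23 CPM, and Ptprc and Adgre1 were under 0.2 CPM in both groups. The call of Csf1r was lost with library size added to the fit (edgeR adjusted p = 0.0637) and that of Cd68 without forskolin B (0.0615). Hepatocyte markers had 2 of 10 tested and summed to 174 to 188 and to 217 to 238 CPM, nearly all of it Trf, which rose from 176 to 220 CPM. Alb held 1 count over the 6 libraries and Apoa2 was at 4.33 and 4.80 CPM. Cholangiocyte markers, of interest because Klf5 is an epithelial gene, had 3 of 8 tested and summed to 138 to 152 and to 393 to 428 CPM. Spp1, a gene of many cell types, rose from 72.5 to 372 CPM and made up most of the sum with forskolin. Krt19 fell from 71.3 to 35.1 CPM, and with vehicle it was at a level similar to that of Spp1. Sox9 rose from 1.53 to 3.48 CPM, and Epcam and Krt7 were near 0.

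Mesothelial and portal fibroblast markers had 6 of 10 tested, 2 higher (Cd34 from 3.86 to 19.6 CPM and Thy1 from 0.650 to 4.93 CPM) and 2 lower, Lrrn4 falling from 3.88 to 0.519 CPM. They summed to 581 to 601 and to 510 to 538 CPM, nearly all of it Fbln2, the other lower gene, at 581 and 493 CPM. All 7 smooth muscle markers fell, where 25.1% of all tested genes were lower, with log2 fold changes from -1.06 to -0.13. Their sum was 1202 to 1222 CPM with vehicle and 897 to 1011 CPM with forskolin. Cnn1 fell from 32.1 to 15.4 and Actg2 from 29.7 to 14.9 CPM. Des, which fell from 323 to 182 CPM, is also among the stellate cell markers, so its fall is counted in both sums. The part of these cell types in the values of the KLF and EGR genes was not tested.

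Across 14 processing alternatives, Klf4, Egr2 and Egr3 kept their direction and their call in each, with log2 fold changes of 1.14 to 1.29, 1.05 to 1.14 and 1.34 to 1.80. Klf10 and Egr1 lost theirs only when tested against a change of 1.5-fold rather than against no change. With library size added to the fit, the calls of Klf2, Klf5, Klf9 and Klf15 were lost (edgeR adjusted p = 0.203, 0.276, 0.0555 and 0.15), with Klf5 at a log2 fold change of -0.29. As library size differed between the groups without overlap, depth and treatment cannot be fully told apart in that fit.

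**Figure D5:**
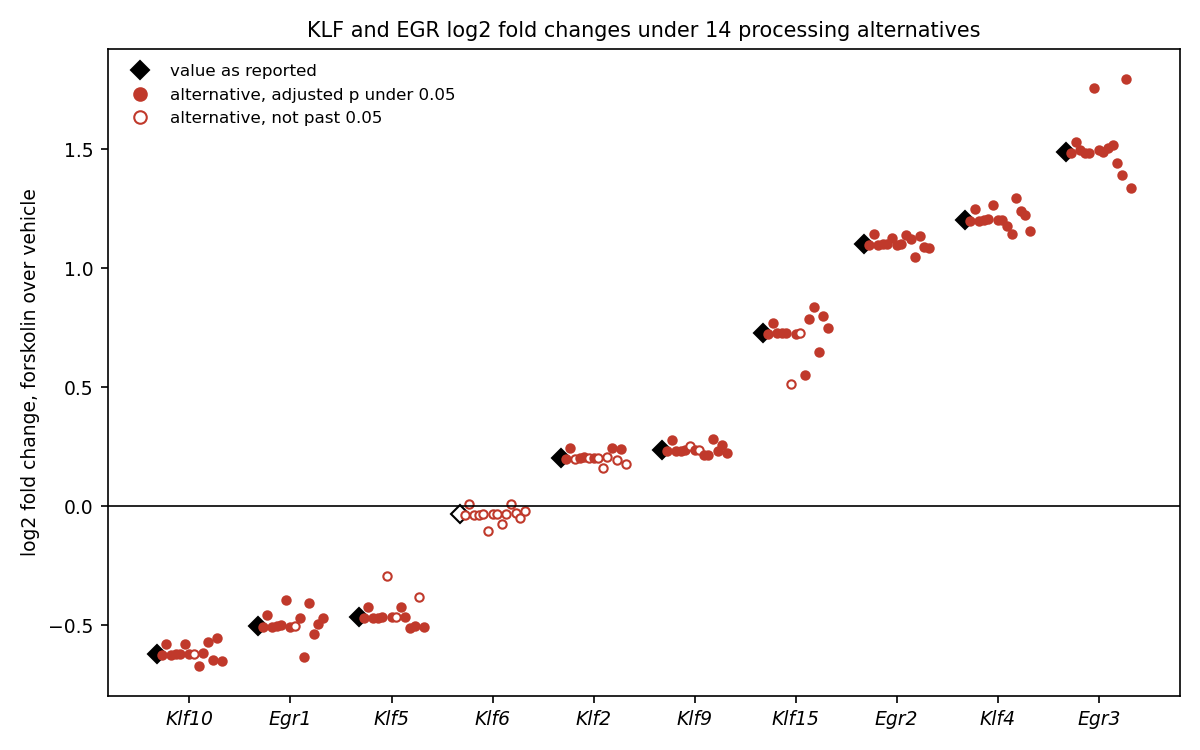
Log2 fold change of each KLF and EGR gene (vertical axis) as reported (black diamond) and under 14 processing alternatives (red circles), each filled where the adjusted p was under 0.05 and open otherwise. Filled circles throughout mark Klf4, Egr2 and Egr3, and the circles of Klf6 lie on both sides of 0, between -0.10 and 0.01.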

How the data were processed

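The authors deposited 1 table of unnormalized expected counts (estimated, in steps of 0.5, 31.8% of them not whole) per gene over exons. Per the submitters' processing notes STAR, HOMER and mm10 were used. Tool versions, settings and gene models: not given in the sources used here. Exon lengths are also from the deposited table. Those counts were rounded to whole numbers. Strand use is not stated. Genes were kept with filterByExpr in edgeR 4.0.16 (minimum count 10, total 15; R 4.3.3), which left 13357 genes with 99.9% of counts, scaled with TMM and tested by group with the quasi-likelihood test. Its p-values were adjusted by Benjamini-Hochberg over all tested genes, with a threshold of 0.05. SEs come from the F statistic, and the 95% intervals use its degrees of freedom. The fit was also run on simulated counts in which far fewer genes changed than were called here. That run checked the code and does not bear on single calls. Alternatives were RLE scaling, library size alone, DESeq2 1.42.0, no filter, no rounding, library size as a covariate, the replicate letter as a block, a 1.5-fold null and leaving out each library. No pair of libraries held identical values.

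The KLF and EGR genes and all gene lists were chosen with earlier results of these data known. Genes named are the 10, the tested KLF, SP and EGR-type genes, and the 3 of each other list with the smallest adjusted p. Also named are markers at or near 0 and genes that hold a large part of a list's sum. Where a list had fewer than 3 tested genes, all were eligible. RefSeq promoter windows of 300 bases were searched on both strands. GENCODE M21 (GRCm38) transcripts gave the share of 50-base stretches found in no other gene.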

Additional observations from a re-analysis of the deposited data

How the results depend on the processing

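Of the 10 KLF and EGR genes, 6 were higher and 3 lower as reported. With library size as a covariate 3 were higher, and against a 1.5-fold change 3 were higher and 0 lower. Over all tested genes these settings gave 1998 higher in place of 3319 for the covariate, and 422 higher and 578 lower in place of 3319 and 3349 for the 1.5-fold change. Scaling by library size alone gave 3988 genes higher and 2874 lower. Leaving out 1 library at a time gave 5 to 6 members higher and 2 to 3 lower, and 2773 to 3369 genes higher and 2858 to 3431 lower. Calls lost are given with the log2 fold change of that fit. Klf2 lost its call with DESeq2 (0.20) and with the covariate (0.20). It also lost it without forskolin A (0.16), forskolin B (0.21), vehicle A (0.20) or vehicle C (0.18). Klf5 lost its call with the covariate (-0.29) and without vehicle B (-0.38). Over all 6 fits without a single library, Klf2 ranged from 0.16 to 0.24 and Klf5 from -0.51 to -0.38. Klf9 (0.25) and Klf15 (0.51) lost their calls with the covariate. Against a 1.5-fold change, with values as reported, the calls lost were Klf2 (0.20), Klf5 (-0.47), Klf9 (0.24), Klf10 (-0.62), Klf15 (0.73) and Egr1 (-0.50). Klf6, never past the threshold, turned to 0.010 with library size alone and ranged from -0.073 to 0.011 without single libraries. Klf3 turned to 0.027 with library size alone and 0.025 with the covariate and ranged from -0.053 to 0.024 without single libraries, and Sp3 turned to -0.015 with the covariate and ranged from -0.015 to 0.073 without single libraries. The cause of these shifts was not tested, apart from the stricter null of the 1.5-fold test.

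The replicate block changed no call among the 10 genes (6 higher and 3 lower, and 3303 and 3372 over all genes). Deviations from the group mean correlated across genes at 0.034, 0.030 and 0.030 for the letters A, B and C. Each library correlated best with its own letter, while unlike letters ranged from -0.051 to 0.022. All these correlations were small and do not settle whether the letters pair the groups. The letters were not taken as pairs. Depth limits Egr3 most, with 19 counts in its lowest library.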
